A study of Ovis aries with 2 samples.

Results

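The 8 genes described here, EBF1, PAX5, SPIB, BCL11A, TCF4, POU2F2, POU2AF1 and SOX5, encode transcription factors and one coactivator of the B-cell lineage. They were taken by name from the 26761 gene names of the counts, and all 8 were found. Mononuclear cells from sheep blood, isolated on a density gradient and not cultured, were read by droplet sequencing of transcript 3′ ends, in which a unique molecular identifier (UMI) marks each captured molecule. The labels give 1 library to animals that received nothing, called untreated, and 1 library to animals with A.G.-ES embedded at the acupuncture point ST36 on both sides before blood was drawn. The series title calls the embedded material a suture that elutes astragaloside IV and glycyrrhizic acid and speaks of weaned lambs; how many animals gave blood for each library, and their sex, is not stated in the labels.

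B-cell identity is built by a small set of regulators that act together. EBF1 and PAX5 switch on genes of the B-cell receptor and hold down genes of other lineages, SPIB and BCL11A belong to the same early and mature programme, and the E protein TCF4 pairs with other helix-loop-helix factors on E-box sites in B cells and plasmacytoid dendritic cells. POU2F2 (Oct-2) binds octamer sites of immunoglobulin genes and recruits POU2AF1 (OBF-1), while SOX5 is known from memory-like B cells that circulate with an unusual surface phenotype. When a B cell becomes an antibody-secreting cell, PRDM1 and XBP1 take over and PAX5 is silenced.

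After filtering and removal of likely doublets, the libraries held 7565 (untreated) and 8737 (A.G.-ES) cells, at a median of 5130 and 4105 UMIs. The libraries stood apart in a way the treatment labels do not describe: 85 genes of the Y chromosome gave 40447 untreated and 754 A.G.-ES UMIs. Sex, animal, library preparation and treatment cannot be told apart in any value below. Mitochondrially encoded genes held 1.43% and 2.26% of UMIs, and 61 barcodes occurred in both libraries. Leaving those out moved no member's B-gate or T-gate ratio between the libraries outside its interval. With 1 library per group there is no replicate check and no test between treatments. Ranges in brackets after a level, share or ratio are 95% intervals; they reflect counting error alone.

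Cells were assigned by marker UMIs, none of them from the 8 genes. A B cell needed a sum of at least 3 UMIs of CD79A, CD79B and MS4A1, and a cell of the MZB1/DERL3 gate, meant for plasmablasts, at least 2 UMIs of those genes. T cells needed at least 2 UMIs of CD3D and CD3E, NK cells at least 2 of NCR1 and KLRF1, and monocytes at least 3 of a set that includes CD14, CSF1R and VCAN. Cells that met gates of several lineages were set aside (520 and 320). The B gate held 2270 untreated and 1363 A.G.-ES cells, the MZB1/DERL3 gate 1021 and 414, the T gate 2800 and 5081, the NK gate 28 and 54 and the monocyte gate 174 and 256. Median depth in the B gate was 8033.5 and 5299 UMIs, and in the T gate 4052.5 and 4088. All 7 B-cell check genes outside the gate (CD22, BLK, BLNK, BANK1, FCRLA, CR2 and CD72) were detected in the B gate of both libraries, with a summed level of 3062 and 2029 CPM, UMIs per 1000000 UMIs of the pooled cells. BANK1 alone gave 2599 and 1674 CPM of this. Detection alone did not set B cells apart, as all 7 were also found in untreated T cells. Their sum in T cells was 285 and 88.5 CPM, and BLK was higher in untreated T cells (237.8 CPM) than in untreated B cells (89.7 CPM). The MZB1/DERL3 gate did not look like a plasmablast population as a whole. MS4A1, a gene of resting B cells, stood at 689 and 490.4 CPM there, TNFRSF17, the receptor of plasma cells, had 0 UMIs in the A.G.-ES library, and 972 of 1021 untreated and 380 of 414 A.G.-ES cells also met the B gate. It is therefore called by its genes. The summed level of 7 plasmablast genes, POU2AF1 among them, was 1284 and 514 CPM there, against 516 and 336 CPM in the B gate. JCHAIN, a gene of polymeric antibody, alone gave 954 and 295 CPM of the former, and POU2AF1 was not higher than in the B gate. In monocytes the same 7 genes summed to 495 and 589 CPM.

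The first comparison asked in which blood cells the 8 genes were expressed. Each of the 8 was highest in the B or the MZB1/DERL3 gate in both libraries, and each was at least 4-fold higher in the B gate than in the T gate in both. A gene entered this count with 100 or more UMIs over both gates in each library; of 9228 such genes 3.88% met the rule, against 8 of 8 here. These are genes chosen because they are known B-cell regulators, so the count checks the gates as much as the genes. The B and MZB1/DERL3 gates together held between 88.0% (TCF4) and 96.7% (PAX5) of each gene's untreated UMIs, and between 76.2% (TCF4) and 92.6% (SOX5) in the A.G.-ES library.

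EBF1, the pioneer factor of the lineage, stood at 1910.5 CPM in untreated B cells (1891 to 1930.3) and at 1059 CPM in A.G.-ES B cells (1036 to 1082). Its level was 1850.1 and 808 CPM in the MZB1/DERL3 gate, 32.3 and 7.65 CPM in monocytes and 16.7 and 4.50 CPM in T cells. EBF1 was thus 114-fold higher in B than in T cells of untreated animals (99.9 to 132) and 236-fold higher with A.G.-ES (193 to 290.1). Under alternative processing these excesses fell as low as 21.5-fold and 35.1-fold. A UMI was found in 97.2% of untreated B cells and 88.7% of those with A.G.-ES, against 6.32% and 1.77% of T cells. In the 28 and 54 NK cells EBF1 gave 0 and 2 UMIs; with 3 counts as the limit that a count of 0 allows, 0 of 28 cells allows up to 10.7% of cells with a UMI.

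PAX5, which commits precursors to the B lineage, followed the same order. It stood at 986 CPM in untreated B cells (972 to 1000.5) and 543 CPM in A.G.-ES B cells (527 to 559), and at 820.45 and 259 CPM in the MZB1/DERL3 gate. T cells held 7.79 and 2.09 CPM and monocytes 8.38 and 0.589 CPM, and the intervals of these gates overlapped in both libraries. PAX5 was found in 94.1% and 73.9% of B cells and in 3.39% and 0.866% of T cells.

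SPIB, an Ets factor that shares binding sites with PU.1, stood at 246 CPM in untreated (239 to 253) and 167 CPM in A.G.-ES B cells (158 to 176), at 231 and 132 CPM in the MZB1/DERL3 gate, and at 4.33 and 1.32 CPM in T cells. BCL11A, a zinc-finger repressor required for early lymphoid development, stood at 428 CPM (419 to 438) and 257 CPM (246 to 268) in B cells and at 2.57 and 0.999 CPM in T cells. Monocytes held 5.99 and 1.77 CPM of SPIB and 15.6 and 4.12 CPM of BCL11A. The excess of B over T cells was 56.8-fold and 127-fold for SPIB and 167-fold and 257-fold for BCL11A.

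POU2F2 and its coactivator POU2AF1 differed in how far they were limited to B cells. POU2F2 stood at 685 CPM in untreated (674 to 697) and 647 CPM in A.G.-ES B cells (629 to 665), but also at 263 and 207 CPM in monocytes, which is 38.4% and 31.9% of the B level. POU2AF1 stood at 167 CPM (162 to 173) and 100.1 CPM (93.3 to 107) in B cells, with 2 and 0 UMIs in all monocytes (0 of 256 cells allows up to 1.17% of cells with a UMI) and 2.25 and 1.63 CPM in T cells. In T cells POU2F2 was at 32.0 and 44.5 CPM, so that it was 21.4-fold (19.4 to 23.7) and 14.5-fold (13.6 to 15.6) higher in B than in T cells, against 74.5-fold and 61.3-fold for POU2AF1.

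TCF4 was the other gene with a clear level outside B cells. It stood at 561 CPM in untreated (550.0 to 571) and 469 CPM in A.G.-ES B cells (454 to 484), at 572 and 648 CPM in the MZB1/DERL3 gate, at 83.8 and 105 CPM in monocytes, and at 104 CPM in untreated T cells. In A.G.-ES T cells TCF4 was at 11.03 CPM. Its excess in B over T cells was accordingly 5.40-fold (5.10 to 5.73) without and 42.5-fold (37.3 to 48.6) with A.G.-ES.

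SOX5, an HMG-box factor, stood at 3015 CPM in untreated B cells (2991 to 3040.15) and 1275 CPM in A.G.-ES B cells (1249.8 to 1299.9), and at 2772 and 533 CPM in the MZB1/DERL3 gate. It stood at 26.9 and 7.76 CPM in T cells and 21.6 and 7.65 CPM in monocytes, which did not differ beyond counting error in either library. A SOX5 UMI was found in 92.5% of untreated B cells (91.3 to 93.5%) and 66.8% of those with A.G.-ES (64.2 to 69.3%), and in 10.1% and 2.79% of T cells.

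**Figure D1:**
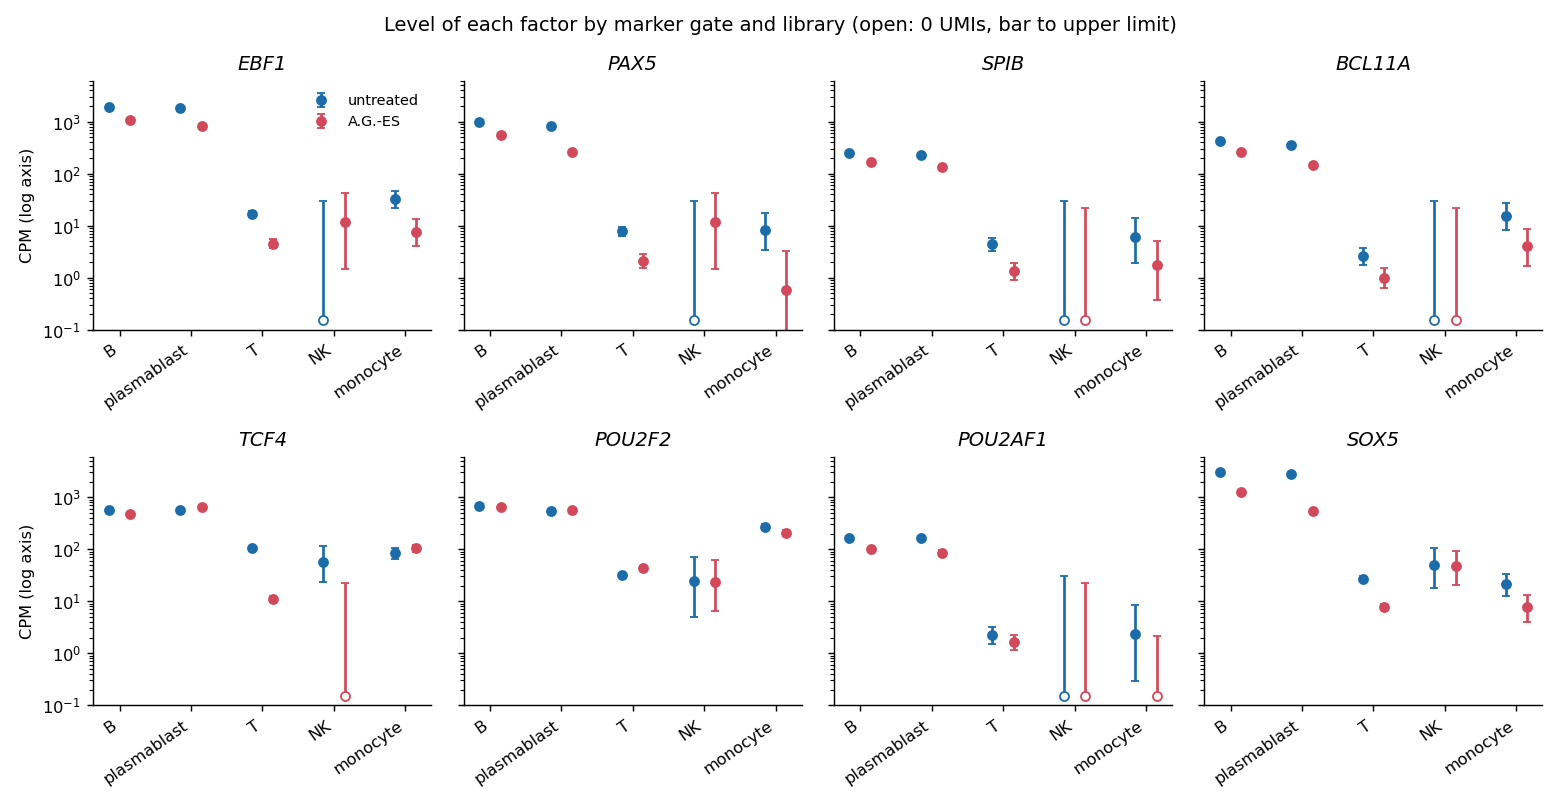
CPM (log axis) of the 8 genes in the B, MZB1/DERL3 (marked plasmablast), T, NK and monocyte gates of the untreated (blue) and A.G.-ES (red) libraries, with 95% counting intervals; open points mark 0 UMIs. Each gene sits highest in the first 2 gates, TCF4 and POU2F2 keep over 80 CPM in monocytes, and TCF4 in T cells is at 104 and 11.03 CPM.

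Paralogues of the 8 genes showed where the family relative, and not the member, was expressed. Of 14 listed relatives all were among the gene names, and 5 passed 100 UMIs over the B cells of both libraries. BCL11B, the T-cell counterpart of BCL11A, stood at 393 and 465 CPM in T cells and at 2.17 and 3.95 CPM in B cells, the reverse of BCL11A. SPI1, which encodes PU.1, was at 67.5 and 66.1 CPM in B cells and 321 and 299.6 CPM in monocytes, where SPIB was nearly absent.

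The E-protein and octamer relatives were spread more widely. TCF12 was at 229 and 195 CPM in B cells and 433 and 265 CPM in T cells, POU2F1 at 238 and 225 CPM in B cells and 363 and 278 CPM in T cells, and TCF3 at 96.4 and 89.7 CPM in B cells and 26.3 and 24.0 CPM in T cells. SOX13, a SoxD relative of SOX5, was at 168 and 40.3 CPM in T cells. POU2F3 was at 4.71 and 3.82 CPM and PAX2 at 2.65 and 2.80 CPM in B cells. EBF2, EBF3, EBF4, PAX8, SPIC and SOX6 each gave under 20 UMIs in every gate and library.

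Genes that followed each member most closely were found by Pearson's r of log2(CPM + 10) over the 10 profiles of 5 gates and 2 libraries, among 9443 genes with symbols and at least 200 UMIs. The profiles share libraries and depth, so r is a description. Several members were nearest to each other: EBF1 to SPIB (r = 0.995), BCL11A (0.992) and PAX5 (0.991), PAX5 also to POU2AF1 (0.991), and SPIB to POU2AF1 (0.998). CD22, a B-cell inhibitory receptor, was among the 3 nearest of SPIB (0.997), BCL11A (0.995) and POU2AF1 (0.996). BCL11A was nearest to SEMA4B (0.995), and FCRL1 (0.997) and XKRX (0.996) were among the 3 nearest of POU2AF1 and of SPIB. TCF4 had its nearest profile in SYVN1, a ubiquitin ligase of the endoplasmic reticulum (0.956), followed by SYPL1 (0.945) and RALGPS2 (0.938). POU2F2 was nearest to LYL1 (0.993), WDFY4 (0.991) and ZDHHC14 (0.988), and SOX5 to CABLES1 (0.992), TMEM243 (0.985) and FADS3 (0.983).

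The second comparison set A.G.-ES B cells against untreated B cells. The B cells of the A.G.-ES library held less of the core regulators: SOX5 was at a ratio of 0.423 (0.414 to 0.432), PAX5 at 0.551 (0.532 to 0.569), EBF1 at 0.554 (0.541 to 0.568), POU2AF1 at 0.598 (0.552 to 0.647) and BCL11A at 0.600 (0.571 to 0.630). SPIB was at 0.678 (0.638 to 0.721), just short of 1.5-fold. TCF4 was at 0.837 (0.806 to 0.869) and POU2F2 at 0.944 (0.913 to 0.975), or 1.01 with ratios centred on the median gene. Thus 5 of 8 genes were lower by 1.5-fold or more and 0 were higher by as much. Among the 9018 genes that had 100 or more UMIs in total, 13.6% were lower and 9.34% higher by the same rule. The median log2 ratio was −0.74 for the 8 genes and −0.10 for all 9018.

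Depth per B cell differed between the libraries, so shares of cells with a UMI were also taken after thinning every cell to 1500 UMIs, which left out 40 untreated and 21 A.G.-ES B cells. EBF1 was then found in 82.8% of untreated B cells and 67.7% of those with A.G.-ES, PAX5 in 65.2% and 42.9%, BCL11A in 40.9% and 26.5%, and SOX5 in 80.9% and 49.9%. SPIB went from 29.4% to 20.5% and POU2AF1 from 19.8% to 13.3%. TCF4 (48.7% and 43.7%) and POU2F2 (60.0% and 58.7%) lay closest together, as they did in CPM. At this depth a median of 4 of the 8 genes was found per untreated B cell and 3 per A.G.-ES B cell, while 76.5% of untreated and 90.2% of A.G.-ES T cells held none.

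SOX5 ranged widely among B cells. With each B cell thinned to 3000 UMIs (2135 and 1212 cells), SOX5 had a median of 6 and a highest value of 79 UMIs per untreated cell, against a median of 1 and a highest value of 51 per A.G.-ES cell. Among A.G.-ES B cells 36.8% held no SOX5 UMI and 9.41% held 10 or more, against 10.96% and 31.9% of untreated B cells. POU2F2 had a median of 2 UMIs in both libraries.

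**Figure D2:**
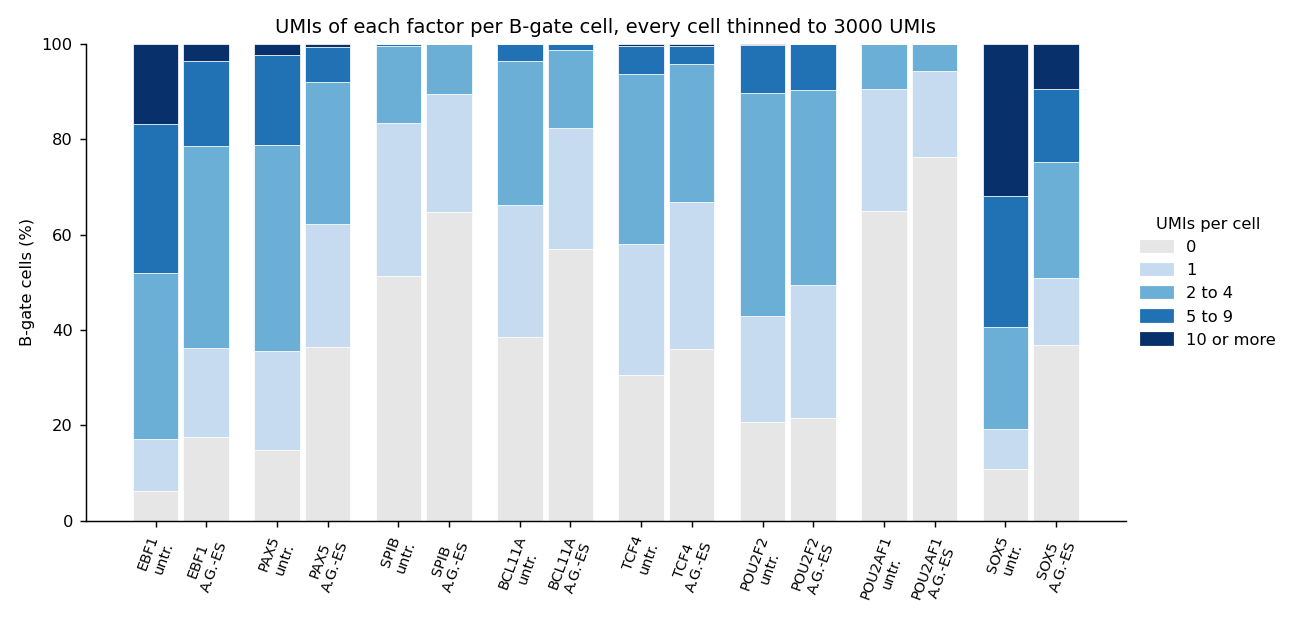
Percentage of B-gate cells with 0, 1, 2 to 4, 5 to 9 and 10 or more UMIs of each gene, after every cell was thinned to 3000 UMIs, for the untreated (untr.) and A.G.-ES libraries. The share with 0 SOX5 UMIs is 10.96% and 36.8%, while the POU2F2 bars of the 2 libraries are nearly alike (20.7% and 21.6% with 0).

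Within B cells at 3000 UMIs, detection of one member told little about detection of another. Over the 28 pairs Pearson's r lay between −0.036 and 0.158 in untreated and between −0.087 and 0.249 in A.G.-ES B cells. The highest A.G.-ES value was that of PAX5 with SOX5: SOX5 was found in 72.3% of cells with and 47.4% of cells without a PAX5 UMI. The lowest there was that of TCF4 with SOX5, where SOX5 was found in 60.1% of cells with and 68.8% of cells without a TCF4 UMI. In counts this sparse, such values are descriptions.

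To see whether the ratios went with the make-up of the B gate, B cells were grouped by single genes, with at least 2 UMIs each. These genes were SOX5, NPAS3 and FCER2, the low-affinity IgE receptor of follicular B cells. The groups overlapped: 18 untreated and 18 A.G.-ES FCER2 B cells were also SOX5 B cells. A SOX5 UMI was found in 92.9% of untreated and 73.0% of A.G.-ES NPAS3 B cells. SOX5 B cells were 87.8% of untreated B cells (1994 cells) and 57.2% of those with A.G.-ES (780 cells). B cells with no UMI of either SOX5 or FCER2 were 6.87% (156) and 26.6% (362), FCER2 B cells numbered 26 and 43, and NPAS3 B cells 14 and 174. The median depth of the cells with neither was 5274 and 4030.5 UMIs, against 8369.5 and 6375.5 for SOX5 B cells, and how many of them hold SOX5 RNA that was missed at this depth was not tested.

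Between the libraries, the regulators differed within the SOX5 B cells too. EBF1 was at 1950.2 and 1229.8 CPM (ratio 0.631, 0.614 to 0.648), PAX5 at 1010.4 and 659 CPM (0.652, 0.629 to 0.677), BCL11A at 446 and 286 CPM (0.642) and POU2AF1 at 171 and 110.2 CPM (0.645). SPIB was at 0.756, TCF4 at 0.700 (0.666 to 0.734) and POU2F2 at 0.981 (0.945 to 1.02). So 4 of the 7 genes other than SOX5 were at least 1.5-fold lower, against 12.8% of 8612 genes.

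Among cells with neither SOX5 nor FCER2, EBF1 was at 1636 and 729.7 CPM (0.446, 0.413 to 0.482), PAX5 at 739 and 295 CPM (0.399, 0.354 to 0.450) and TCF4 at 745 and 695 CPM (0.933, 0.846 to 1.03). Again 4 of 7 genes, EBF1, PAX5, SPIB and POU2AF1, were at least 1.5-fold lower, against 17.3% of 3428 genes. In the few NPAS3 B cells (14 and 174), EBF1 was at 1975 and 1283 CPM (0.650, 0.566 to 0.749) and PAX5 at 1207 and 708 CPM (0.587, 0.491 to 0.706). TCF4 was at 0.609, POU2AF1 at 0.735 (0.464 to 1.22), BCL11A at 0.863 (0.633 to 1.20), POU2F2 at 0.936 (0.740 to 1.20) and SPIB at 1.01 (0.630 to 1.72). In the 26 and 43 FCER2 B cells PAX5 was at 0.512 (0.412 to 0.632), SPIB at 0.672 (0.447 to 1.002), BCL11A at 0.776 (0.573 to 1.05) and EBF1 at 0.802 (0.674 to 0.954). TCF4 was higher there, at 1.43 (1.06 to 1.94), and POU2F2 (1.20, 0.965 to 1.497) and POU2AF1 (1.26, 0.685 to 2.34) were not apart beyond counting error.

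Inside each library the cells with neither marker differed from SOX5 B cells in a gene-specific way. In the untreated library BCL11A (2.08-fold) and POU2F2 (1.56-fold) were at least 1.5-fold lower, 2 of 7 genes, against 12.2% of 8178 genes. In the A.G.-ES library PAX5 (2.23-fold), SPIB (1.71-fold) and EBF1 (1.69-fold) were lower than in SOX5 B cells, 3 of 7, against 8.98% of 5901 genes. TCF4 went the other way in both, at 745 against 551 CPM and 695 against 386 CPM.

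The A.G.-ES cells with neither marker also carried IRF8 at 146 CPM and FLT3, a receptor of dendritic progenitors, at 28.6 CPM, against 46.0 and 1.15 CPM in the untreated library. Over the whole B gate FLT3 gave 2 and 52 UMIs, and the 5 conventional dendritic markers in the counts, FLT3 among them, summed to 1.54 and 9.30 CPM. Of the other 4, XCR1 gave 3 and 5 UMIs and BATF3 24 and 16, while CLEC9A and FCER1A were at 0 in all 5 gates of both libraries. The 8 plasmacytoid dendritic markers in the counts summed to 147 and 159 CPM in the B gate, but to 138 and 276 CPM in the MZB1/DERL3 gate. In the latter gate IRF8 held most of the difference, at 44.2 and 169.6 CPM. Of these markers PACSIN1 alone was lower with A.G.-ES there, at 54.4 and 43.6 CPM. In monocytes the same markers summed to 218 and 271 CPM. The part of dendritic cells in the B-gate ratios was not tested beyond the following gate. With a B gate that also required a UMI of CD22, BLK or BLNK and no FLT3 UMI, a rule chosen after these values were seen, the same 5-gene count was reached and TCF4 was at 0.750, EBF1 at 0.589, PAX5 at 0.601 and SOX5 at 0.475.

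Other regulators of B cells did not share one direction. Of 27 listed, 24 passed the count minimum, 6 were higher and 3 lower by 1.5-fold or more, with a median log2 ratio of 0.06. The lower ones were FOXO1 (0.406), IKZF3, which encodes Aiolos (0.479), and FOXP1 (0.510). The higher ones were LEF1 (4.08, from 46 and 78 UMIs), RUNX3 (1.77), MEF2C (1.75), IRF8 (1.73), ID3 (1.61) and XBP1 (1.60). Those between included AFF3 (0.669), ZBTB20 (1.11), REL (1.18) and BACH2 (1.35), a repressor of plasma-cell fate.

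Among known targets of EBF1 and PAX5 few were apart. Of 14 listed, 13 passed the minimum, 2 were at least 1.5-fold lower, namely FCRLA (0.592) and CD79B (0.596), and 1 was higher, FCER2 (4.15), with a median of −0.17. MS4A1 (0.977), BLNK (0.725) and CD79A (1.24) lay between; MS4A1, CD79A and CD79B also defined the gate. Of 11 genes that PAX5 is known to repress, 10 were in the counts and 5 passed the minimum, and 3 of them, RUNX2 (5.26), GATA3 (2.80) and ITGAL (1.59), were higher and 0 lower. NOTCH1 (1.49) lay between, as did LMO2, with 2857 and 806 UMIs, at 0.679 (0.627 to 0.734). Among all 9018 genes, 9.34% were higher and 13.6% lower by this rule. GATA3 rested on 55 and 64 UMIs. CD3E, a T-cell gene, stood at 5.19 and 13.1 CPM in the B gate. The part of T-cell or dendritic-cell RNA in the RUNX2, GATA3, ITGAL, LEF1 and RUNX3 values was not tested. Of 7 partners and inhibitors of E proteins such as TCF4, 6 passed the minimum and 1, the inhibitor ID3, was higher. None of the 5 paralogues past the minimum was 1.5-fold apart.

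The third comparison followed the genes into cells with more MZB1 and DERL3, genes of the secretory pathway. In the untreated library 721 cells had 2 to 4 such UMIs, 277 had 5 to 19 and 23 had at least 20; the A.G.-ES library had 357, 56 and 1. The 23 cells carried JCHAIN, the joining chain of polymeric antibody, at 6297 CPM, XBP1 at 308 CPM and PRDM1 at 93.0 CPM, against 231, 14.98 and 3.18 CPM in B cells. Of other plasmablast genes, IRF4 was at 89.8 against 98.6 CPM, a ratio of 0.910 (0.683 to 1.19). TNFRSF17 gave 22 UMIs, found in 17.4% of the 23 cells, and SDC1 gave 0. MS4A1 was 4.22-fold lower in them and MKI67, a gene of dividing cells, was found in 87.0%.

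SOX5 was 12-fold lower in the 23 cells than in the untreated B gate (251 CPM against 3015), PAX5 5.30-fold (186 against 986), BCL11A 3.98-fold (108 against 428), EBF1 3.22-fold (592 against 1910.5), SPIB 3.21-fold (76.7 against 246) and POU2F2 2.88-fold (238 against 685). TCF4 was at 433 CPM (1.30-fold lower) and POU2AF1 at 145 CPM, at a ratio to the B gate of 0.867 (0.695 to 1.07). Thus 6 of 8 genes were at least 1.5-fold lower, and POU2AF1 did not differ beyond counting error. Of 8393 genes, 31.3% were at least 1.5-fold lower there. POU2AF1 and TCF4 were each found in 95.7% of the 23 cells. Of the 6 lower genes, POU2F2 was found in 91.3%, EBF1 in 69.6%, PAX5 and SOX5 in 60.9% each, BCL11A in 39.1% and SPIB in 34.8%. Median depth was 27238 UMIs in the 23 cells and 8033.5 in the B gate, so these shares cannot be set against those of B cells.

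In the untreated library the difference was graded. With 2 to 4 UMIs of MZB1 and DERL3 all 8 genes lay there between 0.892 (POU2F2) and 1.13 (SOX5) of the B level, and with 5 to 19 between 0.601 (BCL11A) and 0.966 (TCF4). In that middle group SOX5 was at 0.627, PAX5 at 0.672 and POU2AF1 at 0.924. Only 3 of the 23 cells lacked both MKI67 and TOP2A. Against B cells that also lacked both, these 3 had PAX5 33.1-fold and TCF4 1.03-fold lower, while POU2AF1 in the B cells was at 0.701 times their level. No intervals were computed for these folds, and SPIB gave no UMI in the 3 cells, so their size is uncertain. That split was made after the data were seen.

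**Figure D3:**
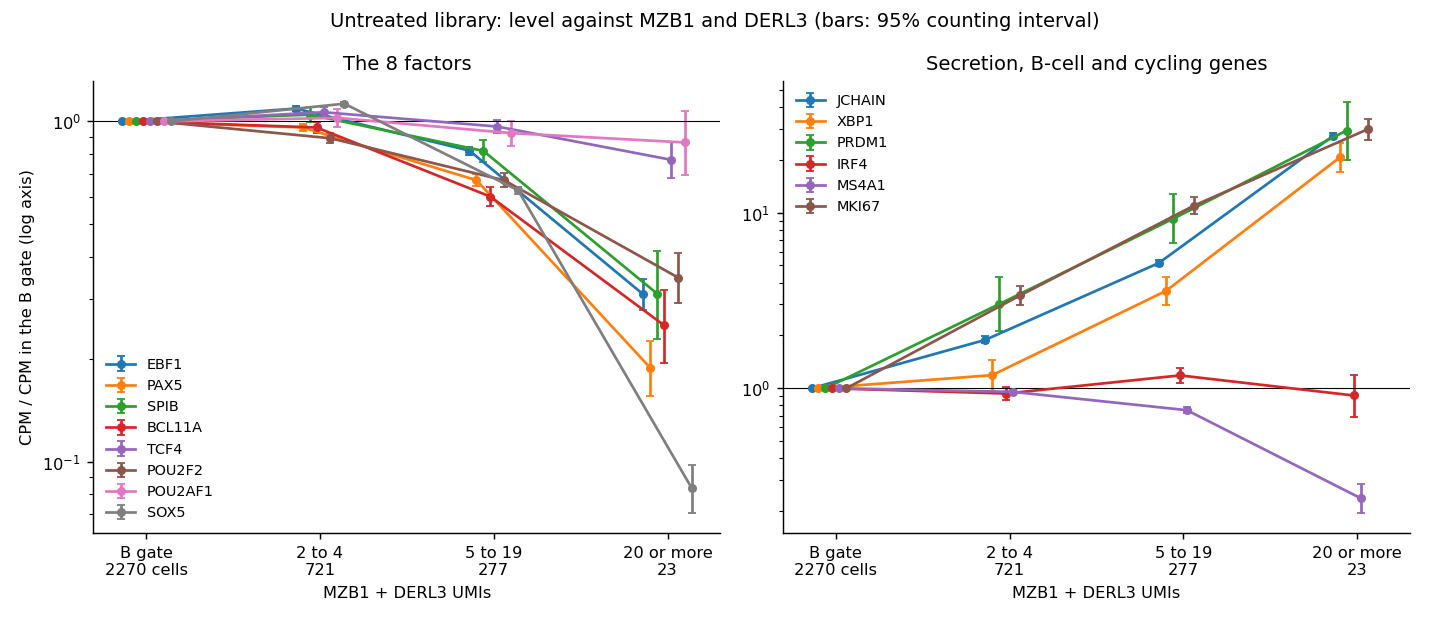
CPM in untreated cells relative to the B gate (log axes, 95% counting intervals) for 2270 B-gate cells and for cells with 2 to 4, 5 to 19 and 20 or more UMIs of MZB1 and DERL3 (721, 277 and 23 cells). On the left, SOX5 is 12-fold and PAX5 5.30-fold lower in the last group while TCF4 and POU2AF1 stay within 1.30-fold. On the right, JCHAIN, XBP1, PRDM1 and MKI67 are higher there, MS4A1 is lower and IRF4 is at 0.910.

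Cells with 5 to 19 UMIs of MZB1 and DERL3 numbered 56 with A.G.-ES. Median depth in this group was 13746 (untreated) and 7698.5 UMIs (A.G.-ES), so the same cut-off on raw UMIs may not pick like cells. DERL3 was found in 100% of the group in both libraries, but MZB1 in 24.9% and 8.93%. JCHAIN in the 56 A.G.-ES cells was at 467 CPM against 1195 CPM in the untreated library, PRDM1 was at 19.9 CPM (10 UMIs) against 29.3 CPM, and XBP1 at 53.8 against 53.7 CPM. In these 56 cells PAX5 was at 297 CPM, 1.83-fold below the A.G.-ES B gate, BCL11A 2.30-fold and SOX5 2.37-fold below it, TCF4 stood at 682 CPM, a ratio of 1.45 (1.30 to 1.62), and POU2AF1 at 1.04 (0.766 to 1.37). The A.G.-ES cells with 2 to 4 such UMIs already stood as far from their B gate in SOX5, at 0.420 of the B level (0.395 to 0.446), and PAX5, at 0.468 (0.428 to 0.511), so that neither gene was graded over these 2 groups as it was in the untreated library. BCL11A was at 0.614 and EBF1 at 0.730 in those 357 cells, and TCF4 was at 1.36. IRF8 stood at 181 CPM in them, against 37.2 CPM in the untreated cells with 2 to 4 UMIs.

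Across the whole MZB1/DERL3 gate, 6 of 8 genes were lower by 1.5-fold or more with A.G.-ES and 0 higher, where 24.9% of 8242 genes were lower and 10.0% higher. SOX5 was at a ratio of 0.192 (0.182 to 0.203), PAX5 at 0.315 (0.292 to 0.340), BCL11A at 0.422, EBF1 at 0.436, POU2AF1 at 0.511 and SPIB at 0.570. TCF4 (1.13, 1.08 to 1.19) and POU2F2 (1.06, 1.00 to 1.12) were again the exceptions. IRF8, which plasmacytoid dendritic cells also express, stood at 44.2 and 169.6 CPM in this gate. The gate did not hold the same cells in both libraries. Of its cells that missed the B gate, 49 untreated ones carried JCHAIN at 5055 CPM, PRDM1 at 238 CPM and MKI67 at 931 CPM, whereas 34 A.G.-ES ones carried IRF8 at 526 CPM, FLT3 at 28.03 CPM (4 UMIs) and PRDM1 at 7.01 CPM (1 UMI). TCF4 stood at 547 CPM in the former and 848 CPM in the latter, and PAX5 at 98.2 and 168 CPM. The part of this difference in the ratios above was not tested.

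The last comparison concerned T cells, which by lineage should lack most of these genes. EBF1, PAX5, SPIB, BCL11A, POU2AF1 and SOX5 in T cells were at 0.385% to 1.76% of their B-cell level. Some other B-cell genes read in the same cells lay close to that: MS4A1 was at 0.748% and 0.554%, CD79B at 1.12% and 0.799% and BLNK at 0.599% and 0.590%. The source of these UMIs was not tested. POU2F2, at 4.67% and 6.89%, lay above these genes and above CD22, which was at 3.08% and 4.83%. TCF4 lay far above them at 18.5% in the untreated library; at 2.35% with A.G.-ES it was above the first 3 genes but below CD22. CD79A was high as well, at 23.3% and 8.80%, with 28.03 and 30.8 CD79A UMIs for each CD79B UMI in T cells against 1.34 and 2.80 in B cells. BLK, a B-cell check gene, stood at 237.8 and 54.3 CPM in T cells, against 89.7 and 92.0 CPM in B cells. MS4A1, CD79A and CD79B define the B gate, and T cells with 3 or more of their UMIs were set aside.

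**Figure D4:**
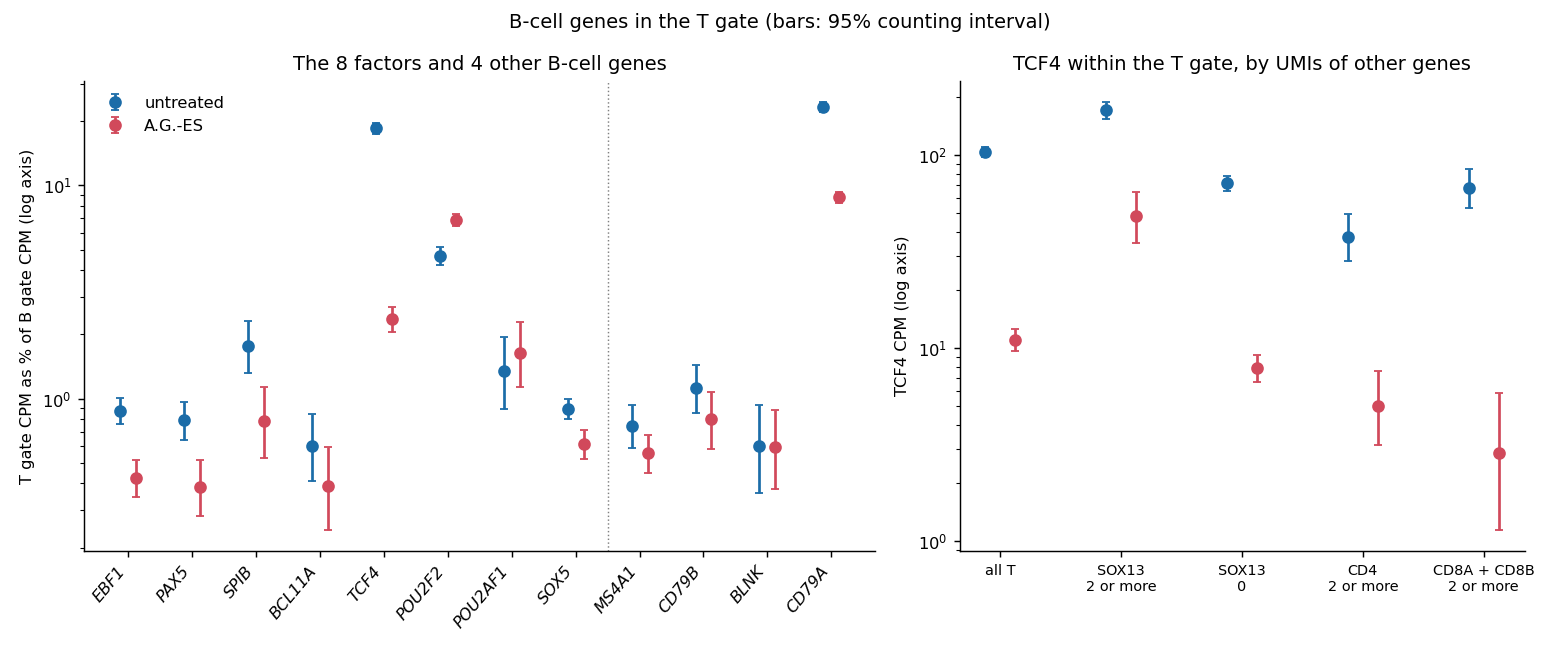
Left, T-gate CPM as a percentage of B-gate CPM (log axis, 95% counting intervals) for the 8 genes and 4 other B-cell genes in both libraries; most lie near 1%, TCF4 at 18.5% and 2.35% and CD79A at 23.3% and 8.80%. Right, TCF4 CPM (log axis) in T cells and in T cells grouped by UMIs of SOX13, CD4 or CD8A and CD8B; the untreated value is the higher one in every group.

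Between the libraries, T-cell TCF4 was lower with A.G.-ES by a factor of 9.41, from 1293 UMIs in 2800 cells to 243 UMIs in 5081 cells, a ratio of 0.106 (0.0923 to 0.122). A TCF4 UMI was found in 23.8% of untreated (22.2 to 25.4%) and 3.68% of A.G.-ES T cells (3.18 to 4.24%), and in 12.9% and 1.56% after thinning to 1500 UMIs. EBF1 (0.269), PAX5 (0.268) and SOX5 (0.289) were lower too, from levels that in untreated T cells were 0.874%, 0.789% and 0.892% of those in B cells. The B gate took up 30.0% of all untreated cells but 15.6% of all A.G.-ES cells, and the part of that share in the T-cell values was not tested. POU2F2 was at 1.39 (1.24 to 1.57). The minimum of 100 UMIs was met by 5 members, of which 4 (TCF4 and these 3) were 1.5-fold or more lower and 0 higher, against 11.8% and 7.32% of 9782 genes. SPIB (54 and 29 UMIs), BCL11A (32 and 22) and POU2AF1 (28 and 36) missed it. The median gene stood at −0.12 on the log2 scale, and POU2F2 passed 1.5-fold when ratios were centred on it, with TMM scaling (trimmed mean of M-values), which moved all T-gate log2 ratios by 0.13, and when each cell had equal weight.

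T cells were then divided by 3 sets of genes, a choice made after these values were seen. SOX13 is an HMG-box gene of gamma-delta T cells, which are abundant in young ruminants. With at least 2 SOX13 UMIs (560 and 217 cells), TCF4 was at 170.4 and 48.1 CPM (0.282, 0.204 to 0.384), and with none it was at 71.4 and 7.86 CPM. T cells with at least 2 CD4 UMIs (217 and 833) held 37.8 and 5.03 CPM of TCF4, and those with at least 2 UMIs of CD8A and CD8B (164 and 529) 67.9 and 2.85 CPM. TCF4 was lower with A.G.-ES in all 4 groups, by 3.54-fold to 23.8-fold. In the same groups EBF1 ranged from 12.3 to 15.3 CPM in the 3 groups with CD4, CD8 or SOX13 UMIs of the untreated library, and from 2.09 to 4.35 CPM in the A.G.-ES library.

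POU2F2 did not follow TCF4 among T cells. It stood at 46.5 and 53.5 CPM in CD4 T cells, 34.4 and 15.5 CPM in CD8 T cells and 18.6 and 26.1 CPM in SOX13 T cells. With no SOX13 UMI it was at 40.9 and 46.7 CPM, a ratio of 1.14 (1.003 to 1.30). Only in CD8 T cells was it over 1.5-fold apart, with a ratio of 0.449 (0.279 to 0.724) from 38 UMIs in each library. SOX13 T cells were 20% of untreated and 4.27% of A.G.-ES T cells. The part of this make-up in the POU2F2 ratio of the whole T gate was not tested.

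**Figure D5:**
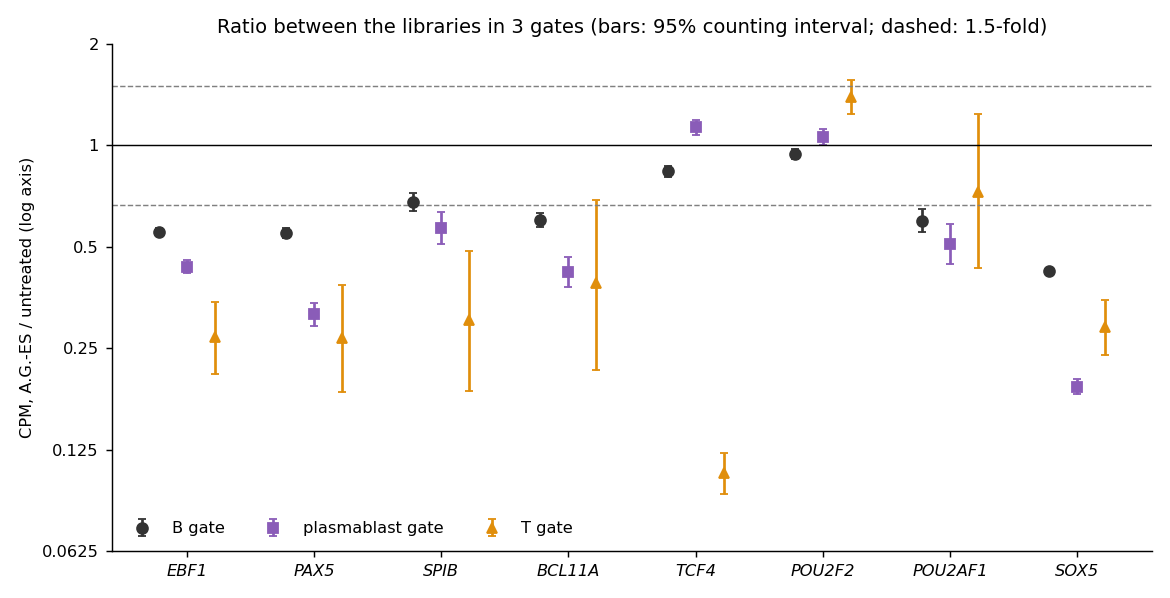
Ratio of CPM in the A.G.-ES to the untreated library (log axis, 95% counting intervals) for the 8 genes in the B, MZB1/DERL3 (marked plasmablast) and T gates; dashed lines mark 1.5-fold. POU2F2 stays near 1 in the B and MZB1/DERL3 gates, SOX5 is at 0.423, 0.192 and 0.289, and TCF4 is near 1 in the first 2 gates and at 0.106 in T cells.

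In monocytes, TCF4 was at 83.8 and 105 CPM (ratio 1.25, 0.943 to 1.67) and POU2F2 at 263 and 207 CPM (0.784, 0.661 to 0.932), found in 55.7% and 59.4% of cells. The other 6 genes gave between 0 and 27 UMIs each in the monocytes of a library. In the 28 and 54 NK cells SOX5 gave 6 and 8 UMIs, TCF4 7 and 0, POU2F2 3 and 4, and EBF1 and PAX5 0 and 2 each. SPIB, BCL11A and POU2AF1 gave 0 in both, where 0 of 54 cells allows up to 5.56% of cells with a UMI. These counts are too few to order the genes.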

How the data were processed

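The values deposited for the 2 libraries are raw UMI counts, 1 per barcode and gene, over 26814 gene rows; rows of the same name were summed. The sources used here do not give aligner, counter or genome build, so no coordinate or sequence is printed. Library kit and treatment are taken from the labels' protocols. Columns of other samples: 0.

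Barcodes under 500 UMIs or 200 genes, or over 15% mitochondrially encoded UMIs, were removed (158 and 186). Scrublet in scanpy 1.11.5 scored doublets, and the highest scores were removed at 0.8% per 1000 cells (523 and 715, against 220 and 195 by the tool's default cut-off). The deposited files held 55861418 and 44485442 UMIs. Counts were summed per gate and library. CD3G, listed for the T gate, was not analysed here. Cells of both the B and MZB1/DERL3 gates counted as the latter.

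CPM carry exact Poisson, shares exact Clopper-Pearson and ratios exact conditional binomial intervals (scipy 1.17.1). The rules for a gene to count as apart, 1.5-fold or 4-fold with at least 100 UMIs, were also applied to all genes. No test was run; the ratio code was checked on simulated counts. edgeR 4.0.16 gave TMM factors only. RefSeq names of ARS-UI_Ramb_v3.0 matched all 26761 names and served for Y-linked genes.

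The members, gates, lists and rules were chosen with earlier results of these data known. Named genes were the 8 members, their 14 listed relatives, list genes past 1.5-fold with up to 4 others of most UMIs, the 3 genes nearest each member, and marker genes. One gene of the monocyte gate and one B-cell gene are not reported here; the latter was left out of the lists.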

Additional observations from a re-analysis of the deposited data

How the results depend on the processing

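No paired analysis was possible because each group has 1 library, and for the same reason no library could be left out. Alternatives changed doublet removal, gates, the depth filter, the CPM denominator, the weight of cells, scaling, thinning and the count minimum; the gate without FLT3, the omission of dividing cells and that of shared barcodes were chosen after seeing the data. All 8 genes stayed highest in the B or MZB1/DERL3 gate and at least 4-fold above T cells under each. The size of that excess varied widely. For EBF1 it lay between 21.5-fold and 122-fold in the untreated library and between 35.1-fold and 259-fold with A.G.-ES. For PAX5 it lay between 23.8-fold and 133-fold in the untreated library and between 59.0-fold and 293-fold with A.G.-ES. The B-gate count stayed between 5 and 6 of 8 lower with 0 higher, and 6 of 8 were lower in the top MZB1/DERL3 group under all 3 alternatives. In T cells, 7 members were lower when barcodes were kept in every gate they passed, and 2 with a count minimum of 500 UMIs, which left fewer members to count. There, 1 member (POU2F2) was higher with every cell given the same weight, 1 with TMM scaling and 1 with ratios centred on the median gene. The share of all genes higher in B cells was 15.4% with a count minimum of 20 and 5.17% with 500, and at 2-fold 7.93% of genes were higher in B than T cells. Of values for single genes, 286 stayed within their counting interval and 66 moved out of it. Of the ratios between libraries, POU2F2 in B cells was the one that crossed 1, from 0.944 to 1.01 with ratios centred on the median gene. Thinned to 1500 UMIs, 16 of 28 pairs were positive in both libraries against 20 at 3000. Depth limits NK cells (28 and 54) and the 1 A.G.-ES cell with at least 20 MZB1 and DERL3 UMIs.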

Other observations

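Cells that met both the B and the T gate, and so entered no comparison, were 510 untreated and 304 A.G.-ES barcodes. CD79A was found in 99.8% and 99.3% of them, but EBF1 in 16.1% and 14.1%, PAX5 in 14.7% and 10.5% and MS4A1 in 16.3% and 16.4%. TCF4 was found in 40.0% and 23.7% and SOX13 in 52.4% and 30.9%. Of these cells 397 and 256 held no EBF1 and no PAX5 UMI. In those, CD79A stood at 607 and 681 CPM, against 590 and 731 CPM in the B gate, while CD79B stood at 10.4 and 5.89 CPM and SPIB at 1.74 and 4.41 CPM. Entry to the B gate took at least 3 UMIs of CD79A, CD79B and MS4A1. With so little CD79B, a high CD79A share and level were largely fixed by the gate and are not a result. TCF4 was at 121 and 47.1 CPM in the cells without EBF1 and PAX5 UMIs.

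Barcodes that met no gate held 12.6% of all A.G.-ES TCF4 UMIs and 1.83% of the untreated ones, against 4.52% and 1.19% for EBF1 and 2.59% and 1.18% for SOX5. Their median depth was 1500.5 (untreated) and 1888 UMIs (A.G.-ES).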
